A study of Mus musculus with 12 samples.

Results

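A set of 10 genes that glucocorticoids are known to induce were followed through 12 RNA libraries of mouse heart. They were picked by symbol: Tsc22d3, Klf9, Klf15, Sgk1, Dusp1, Ddit4, Zbtb16, Errfi1, Hif3a and Arrdc3. Each symbol matched 1 row among the 24918 rows of the table. All 10 passed the filter on low values and were among the 14721 genes tested.

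Glucocorticoids such as corticosterone, the main one of the mouse, cross the cell membrane and bind the glucocorticoid receptor, a transcription factor encoded by Nr3c1. The loaded receptor enters the nucleus, binds DNA as a dimer at paired elements and raises transcription of nearby genes. In the heart the receptor acts in cardiomyocytes, fibroblasts, endothelium and immune cells alike. Its direct targets include brakes on inflammatory and growth signalling (Tsc22d3, Dusp1, Errfi1, Ddit4), a kinase of ion transport (Sgk1) and transcription factors (Klf9, Klf15, Zbtb16).

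Hearts came from C57BL/6 mice aged 2 months that received no treatment, so only hormone of the animals themselves was present. Male floxed and female floxed mice carried loxP sites in both copies of the receptor gene (GRloxP,loxP). The cardioGRKO mice of both sexes carried the same alleles and the transgene αMHCCre/+, in which the promoter of the α myosin heavy chain drives Cre in cardiomyocytes. Each of these 4 groups held 3 libraries. Cre was present in the cardioGRKO groups and in no floxed group, so effects of Cre and of the deletion cannot be told apart. The design text asks how the transcriptome differs between normal and absent receptor in cardiomyocytes, and the title adds sex. Groups rest on the titles, since the genotype field reads wild-type throughout. The labels do not say whether each library is its own animal, and each p-value measures the spread between these libraries.

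The targeted gene checks the labels. Nr3c1 stood at 11.40, 11.42 and 11.42 on the deposited log2 scale in male floxed libraries and at 10.83, 10.85 and 10.88 in male cardioGRKO libraries. Libraries labelled female floxed had 10.74, 10.71 and 10.78, and those labelled female cardioGRKO 10.90, 10.90 and 10.85. Nr3c1 was thus lower in male cardioGRKO libraries (-0.56, SE 0.024) and higher under the female cardioGRKO label (0.14, SE 0.024), against what that label implies. An exact two-sided permutation test gave p = 0.1 in each sex, the smallest that 3 against 3 libraries allow. Male floxed libraries stood alone at a mean of 11.41, and the other 3 groups had means from 10.74 to 10.88. These levels do not show whether a label is at fault or which one, that of the male floxed group included. All directions below, those in males too, follow the labels, and directions given for females follow labels that the targeted gene does not bear out. With the female floxed and female cardioGRKO names exchanged, every female difference has the opposite sign. Whole hearts also contain cells that keep the receptor, and in such bulk samples fewer cells of a type and less RNA per cell cannot be told apart.

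Among the promoter windows of these genes, 1 window of Sgk1 held a complete pair of receptor elements. RefSeq windows running from 250 bases before to 50 bases after a transcription start were found for 9 of the 10 genes, 19 windows in all. They were searched on both strands for GNACANNNTGTNC, 2 elements facing each other across 3 bases, and for the single element TGTTCT, which can overlap the pair. The pair occurred in 1 of the 19 windows and in 0.475% of the 32851 windows of all genes. The single element occurred in 4 of the 19, in windows of Sgk1 and Tsc22d3, and in 19.0% of all. The Sgk1 window with the pair is chr10:21993640-21993939 on the plus strand of GRCm38.p6, 1 of 6 listed for the gene. It is shown because it holds the pair, which is in capitals and starts 188 bases before that transcription start.

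Sgk1: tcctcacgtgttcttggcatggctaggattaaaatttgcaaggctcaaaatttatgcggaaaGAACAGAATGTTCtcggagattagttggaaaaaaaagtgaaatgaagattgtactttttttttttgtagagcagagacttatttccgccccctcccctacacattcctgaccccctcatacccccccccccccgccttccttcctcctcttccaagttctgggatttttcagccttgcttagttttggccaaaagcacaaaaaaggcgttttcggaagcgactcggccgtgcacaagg

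For Tsc22d3, a stretch with the single element in capitals, 185 bases before the start in the window chrX:140600473-140600772 on the minus strand of GRCm38.p6, is printed for comparison. The pair was absent from that window.

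Tsc22d3: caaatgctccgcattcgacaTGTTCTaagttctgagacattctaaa

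In windows of Klf9, Klf15, Ddit4, Errfi1, Hif3a, Dusp1 and Arrdc3 neither set of letters was present. Receptor sites often lie outside such windows, and binding was not measured here.

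In hearts labelled male cardioGRKO, 5 of the 10 genes were lower and 2 higher. Sgk1, Ddit4, Errfi1, Klf9 and Hif3a fell, Arrdc3 and Tsc22d3 rose, and Klf15, Dusp1 and Zbtb16 did not pass the test. Over all genes tested 14.6% were called lower and 12.8% higher in this comparison. The median difference was -0.081 over the 10 genes and -0.0021 over all genes. Under the labels of the female comparison 8 of the 10 fell, all but Zbtb16, which rose, and Arrdc3, which did not pass. There 14.0% of all genes were called lower and 15.2% higher, and the medians were -0.28 over the 10 and -0.00037 over all. In both sexes 5 genes were called lower (Klf9, Sgk1, Ddit4, Errfi1 and Hif3a), as were 249 of all genes tested (1.69%). With the female names exchanged, 0 of the 10 were lower in both sexes, against 724 of all genes (4.92%), and 8 were higher and 1 lower in females.

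**Figure D1:**
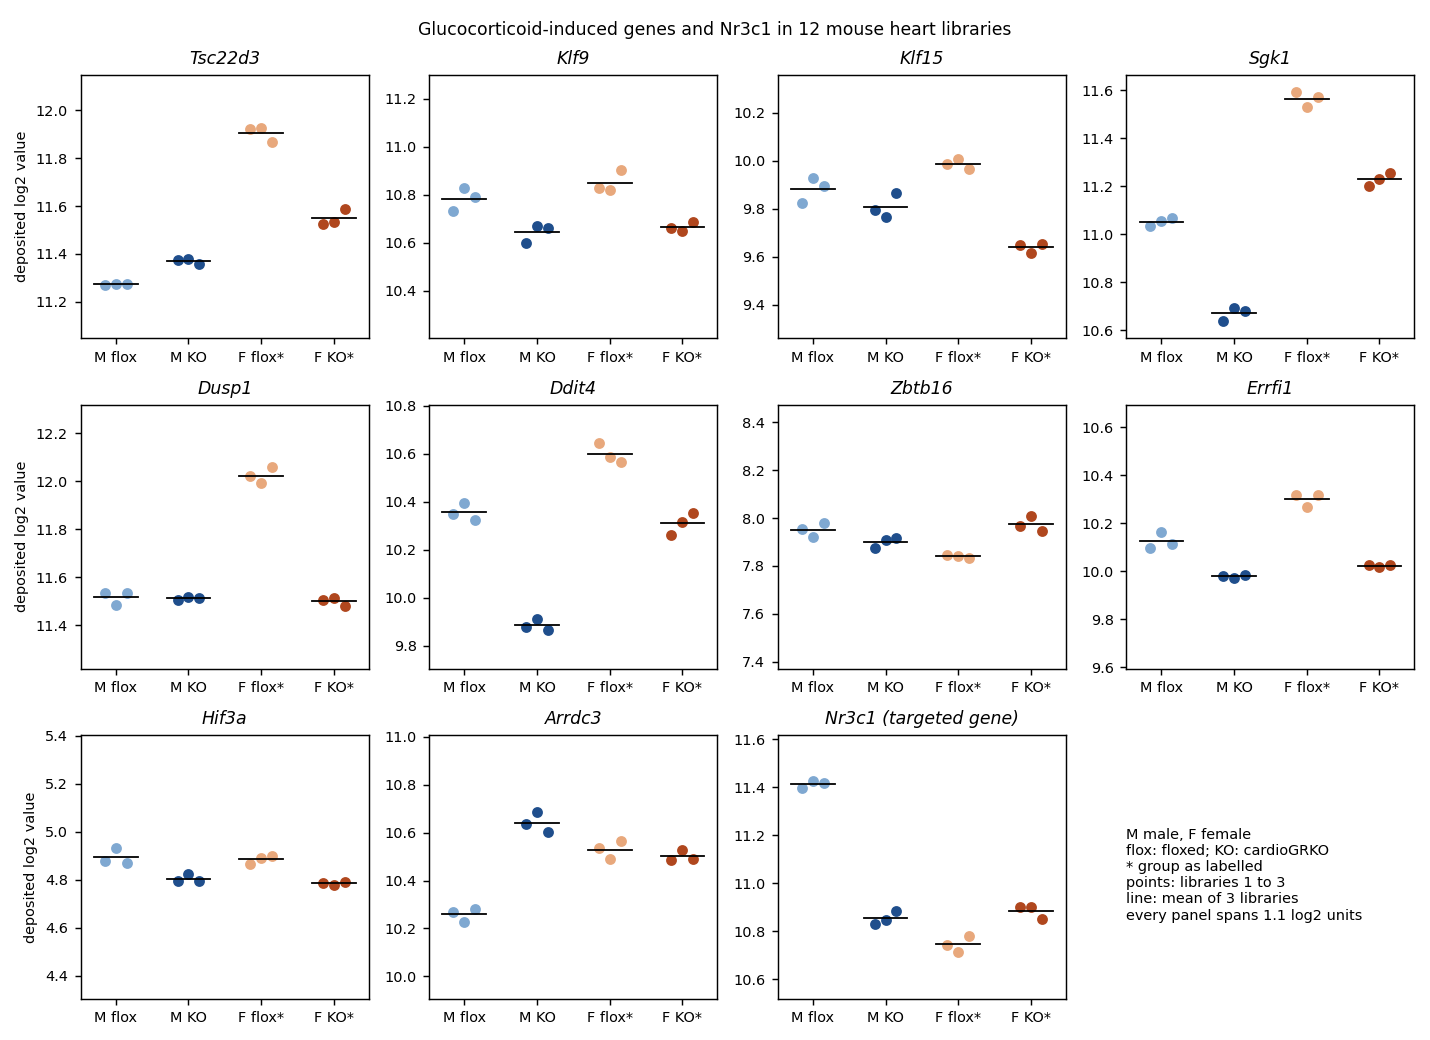
Deposited log2 value (vertical axis) of each of the 10 target genes and of Nr3c1 in the 12 heart libraries (points) and group means (lines); every panel spans the same height, and an asterisk marks groups named as labelled. Sgk1 and Ddit4 are lower in the groups labelled cardioGRKO than in those labelled floxed in either sex, Dusp1 is high in the female floxed group at 11.99 to 12.06, and Arrdc3 is low in the male floxed group at 10.23 to 10.28.

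Sgk1 encodes the serum- and glucocorticoid-regulated kinase, which phosphorylates regulators of ion channels and of cell survival. It stood at 11.03, 11.06 and 11.07 in male floxed and at 10.64, 10.69 and 10.68 in male cardioGRKO libraries. Libraries labelled female floxed had 11.59, 11.53 and 11.57, and those labelled female cardioGRKO 11.20, 11.23 and 11.25. All 4 groups lay apart, the libraries labelled female above the male ones and the floxed above the cardioGRKO within a sex. Sgk1 fell by 0.38 in males (SE 0.024, to 76.8% of the floxed level, adjusted p = 2.4e-09). It fell by 0.34 under the female labels (SE 0.024, to 79.3%, adjusted p = 2.1e-08). The difference between these effects was 0.046 (95% interval -0.025 to 0.12), which was not called.

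Ddit4, also known as REDD1, is a stress-responsive inhibitor of the growth kinase complex mTORC1. Its male floxed libraries read 10.35, 10.40 and 10.32 and its male cardioGRKO libraries 9.88, 9.91 and 9.86. In females the values were 10.64, 10.58 and 10.57 under the floxed and 10.26, 10.32 and 10.35 under the cardioGRKO label. The male cardioGRKO libraries were the lowest of the 12, well clear of the next group. Ddit4 fell by 0.47 in males (SE 0.029, adjusted p = 2.5e-09), the largest fall among the 10 there, and by 0.29 under the female labels (SE 0.029, adjusted p = 1.4e-06). The fall was larger in males, with an effect difference of 0.18 (SE 0.041, adjusted p = 0.0026).

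Errfi1 encodes MIG6, an inhibitor that binds the kinase domain of the epidermal growth factor receptor. It read 10.10 to 10.17 in male floxed and 9.97 to 9.99 in male cardioGRKO libraries, and 10.27 to 10.32 and 10.02 to 10.03 in the matching groups labelled female. Again no 2 groups overlapped. The falls were 0.15 in males (SE 0.024, adjusted p = 0.00018) and 0.28 in females (SE 0.024, adjusted p = 2.7e-07). The female fall was larger by 0.13 (SE 0.034, adjusted p = 0.0075).

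Klf9 and Klf15 are zinc finger transcription factors of the Krüppel-like family. Klf9 read 10.73, 10.83 and 10.79 in male floxed and 10.60, 10.67 and 10.66 in male cardioGRKO libraries. The groups labelled female had 10.83, 10.82 and 10.90 under the floxed and 10.66, 10.65 and 10.69 under the cardioGRKO label. Floxed libraries lay above cardioGRKO libraries in either sex, while the sexes overlapped within a genotype. Klf9 fell by 0.14 (SE 0.030, adjusted p = 0.0019) and by 0.18 (SE 0.030, adjusted p = 0.00020), and these effects differed by -0.045 (95% interval -0.13 to 0.044), without a call.

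Klf15, which promotes amino acid breakdown and restrains hypertrophic growth in heart muscle, behaved otherwise. Its male libraries overlapped, at 9.82, 9.93 and 9.89 in the floxed and 9.80, 9.76 and 9.87 in the cardioGRKO group. Values of 9.99, 10.01 and 9.96 under the female floxed label stood against 9.65, 9.61 and 9.65 under the female cardioGRKO label, with no overlap. The male difference of -0.073 (SE 0.031, adjusted p = 0.098) was not called with all libraries, but it was called without male floxed 1 (-0.10, adjusted p = 0.027) and without male cardioGRKO 3 (-0.10, adjusted p = 0.031). Klf15 fell by 0.35 in females (SE 0.031, adjusted p = 3.7e-07), and the effects differed by -0.27 (SE 0.044, adjusted p = 0.00013).

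Hif3a encodes an α subunit of the hypoxia-inducible factors, some forms of which dampen the others. It was the lowest of the 10 on the deposited scale, at 4.87 to 4.93 in male floxed and 4.79 to 4.82 in male cardioGRKO libraries. The corresponding ranges labelled female were 4.87 to 4.90 and 4.78 to 4.79. Floxed and cardioGRKO libraries did not overlap within a sex. Hif3a fell by 0.089 (SE 0.017, adjusted p = 0.00084) in males and by 0.10 (SE 0.017, adjusted p = 0.00036) in females. At so low a level shrinkage could understate the fold, which was not tested.

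Dusp1, a phosphatase that switches off MAP kinases, was called under the female labels and not in males. Male floxed libraries read 11.53, 11.48 and 11.54 and male cardioGRKO libraries 11.50, 11.52 and 11.51. The values were 12.02, 11.99 and 12.06 under the female floxed and 11.50, 11.51 and 11.48 under the female cardioGRKO label. One group thus stood high, and the other 3 overlapped. The male difference was -0.0070 (95% interval -0.053 to 0.039, adjusted p = 0.86), and its sign turned under quantile normalization (0.0043). Under the female labels Dusp1 fell by 0.53 (SE 0.022, to 69.5%, adjusted p = 3.2e-11) as labelled, and rose by 0.53 with the female names exchanged. The interaction was -0.52 (SE 0.031, adjusted p = 1.6e-09). In the GENCODE M21 annotation, Dusp1 exons share 11 bases with Ergic1 on the opposite strand, and whether counting used the strand is not given in the sources used here.

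Tsc22d3 encodes GILZ, a leucine zipper protein that binds NF-κB and AP-1 and carries part of the anti-inflammatory action of glucocorticoids. It moved in opposite directions in the sexes. Male floxed libraries had the lowest values, 11.27, 11.27 and 11.28, and male cardioGRKO libraries 11.38, 11.38 and 11.36. Libraries labelled female floxed read 11.92, 11.92 and 11.87, and those labelled female cardioGRKO 11.53, 11.53 and 11.59. No 2 groups overlapped. Tsc22d3 rose by 0.097 in males (SE 0.022, adjusted p = 0.0026) and fell by 0.36 under the female labels (SE 0.022, adjusted p = 3.9e-09). Its effect in females was lower than in males by 0.45 (log2 difference -0.45, SE 0.031, adjusted p = 6.7e-09).

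Arrdc3, an arrestin-domain adaptor that steers β-adrenergic receptors through endosomes, rose in males. It read 10.27, 10.23 and 10.28 in male floxed and 10.64, 10.69 and 10.60 in male cardioGRKO libraries. The 6 libraries labelled female ranged from 10.49 to 10.57 and overlapped between genotypes. Arrdc3 was 0.38 higher in male cardioGRKO hearts (SE 0.027, 130.4% of the floxed level, adjusted p = 1.6e-08). In females the difference was -0.029 (95% interval -0.087 to 0.030, adjusted p = 0.48), and the effects differed by -0.41 (SE 0.039, adjusted p = 3.8e-07). The male floxed group was the low one, as it was for Tsc22d3.

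Zbtb16, the transcriptional repressor PLZF, went the other way in females. It ranged from 7.92 to 7.98 in male floxed and from 7.87 to 7.92 in male cardioGRKO libraries. Under the female labels it ranged from 7.84 to 7.85 in the floxed and from 7.94 to 8.01 in the cardioGRKO group. The male difference of -0.052 (95% interval -0.11 to 0.0049) was not called (adjusted p = 0.17), although the libraries did not overlap. Zbtb16 rose by 0.13 in females (SE 0.027, adjusted p = 0.0015), and the effects differed by 0.18 (SE 0.038, adjusted p = 0.0013).

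**Figure D2:**
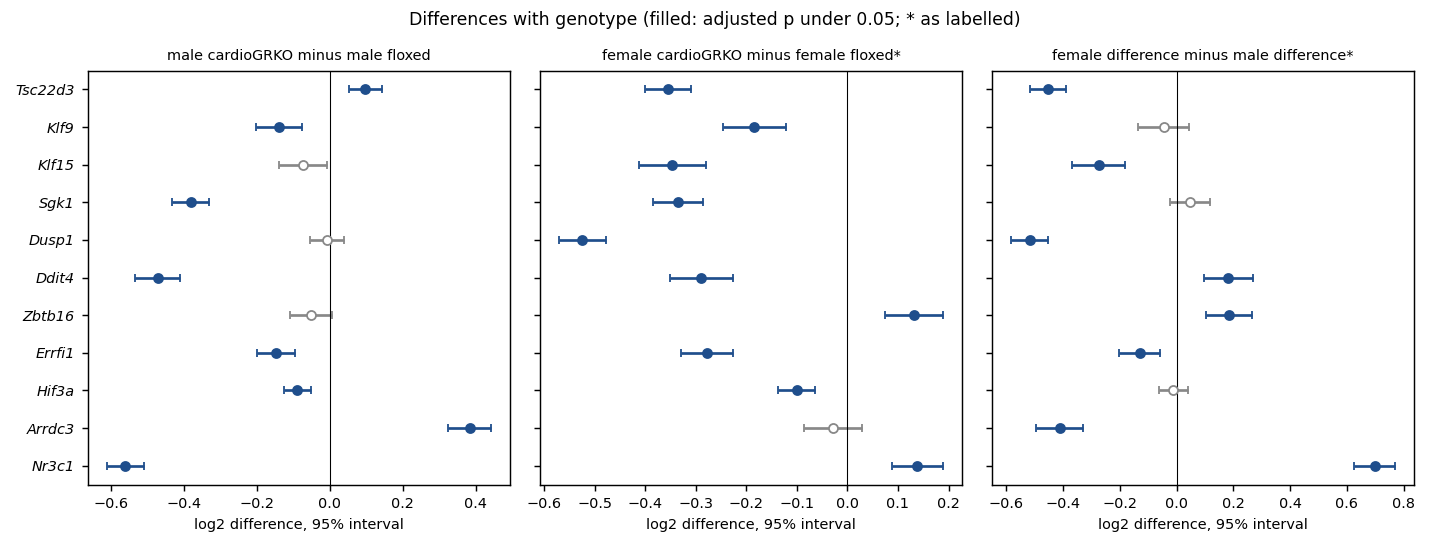
Log2 difference (horizontal axes) between cardioGRKO and floxed hearts for males, for females as labelled, and the female minus the male difference, for the 10 target genes and Nr3c1 (rows); bars are 95% intervals and filled points have an adjusted p under 0.05. Sgk1, Klf9 and Hif3a have similar values in both sexes, while Tsc22d3, Dusp1, Klf15 and Arrdc3 lie lower in females, and Nr3c1 runs the other way (0.70).

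Counted by separation of libraries, 6 of the 10 genes had all male cardioGRKO libraries below all male floxed ones and 2 had them above. Among all genes 22.0% were separated downward and 19.4% upward. Under the female labels 8 were separated downward and 1 upward, against 19.1% and 21.6% of all genes. SDs of the 10 genes within a group ranged from 0.0024 to 0.053, with a median of 0.029. They describe libraries, which the labels do not tie to separate animals, so the p-values may not measure variation between animals. In a further fit the 2 libraries labelled female floxed 1 and 2, which hold epithelial transcripts, were left out. That group then holds 1 library, which is assumed to vary like the other groups, so only differences are given. Without these 2 libraries Dusp1 stood at -0.56, Tsc22d3 at -0.32 and Sgk1 at -0.34 in females.

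The cardioGRKO minus floxed difference, as labelled, differed between the sexes by the interaction for 7 of the 10 genes. It was lower in females for 5 (Tsc22d3, Klf15, Dusp1, Errfi1 and Arrdc3) and higher for 2 (Ddit4 and Zbtb16). Over all genes 14.3% had a lower and 17.0% a higher difference in females. A call was missed for Klf9, Sgk1 and Hif3a, whose intervals are -0.13 to 0.044, -0.025 to 0.12 and -0.063 to 0.040. With the female names exchanged the interaction was called for 9 genes, higher in females for 8 and lower for Arrdc3 (-0.35), and Zbtb16 was not called (-0.080, adjusted p = 0.14). Among all 14721 genes tested, 3620 then had a called interaction in either direction. Sgk1 then had an interaction of 0.72 (SE 0.033, adjusted p = 1.6e-10), Klf9 of 0.32 and Hif3a of 0.19, so which genes differ between the sexes depends on the female labels.

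Set side by side across the 4 groups, 7 of the 10 genes had their highest mean in the libraries labelled female floxed. These were Tsc22d3, Klf9, Klf15, Sgk1, Dusp1, Ddit4 and Errfi1, and for Klf9 that group overlapped with the next. Nr3c1 had its lowest mean in the same group. How often all genes tested had their highest or lowest mean in each group was not counted. The counts here thus show no trait particular to the 10 genes. The lowest mean was in male cardioGRKO libraries for 4 genes (Klf9, Sgk1, Ddit4 and Errfi1), in the female cardioGRKO group for 3 (Klf15, Dusp1 and Hif3a), in male floxed for 2 (Tsc22d3 and Arrdc3) and in female floxed for 1 (Zbtb16). Neighbouring groups overlapped for Klf9 (both pairs within a genotype), Klf15 (the males), Dusp1 (the 3 lower groups), Ddit4 (male floxed and female cardioGRKO), Zbtb16 (female cardioGRKO and male floxed), Hif3a (the floxed groups) and Arrdc3 (the female groups).

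Between the floxed groups, 7 of the 10 genes were higher under the female label and 1, Zbtb16, was lower, where 21.5% of all genes were called higher and 22.7% lower. The Zbtb16 call (-0.11, adjusted p = 0.0035) was absent when replicate number entered as a block (-0.097, adjusted p = 0.095). That fit compares the sexes at its baseline replicate number, not at the group means, so it does not test the same difference. Tsc22d3 was 0.63 higher (SE 0.022, 154.8% of the male level, adjusted p = 7.4e-13), Sgk1 0.51 and Dusp1 0.51. Klf15 was 0.10 higher (adjusted p = 0.012), a call lost without male floxed 1 (0.075, adjusted p = 0.070), and Klf9, at 0.067 (adjusted p = 0.078), was called without male floxed 2 (0.089, adjusted p = 0.038). Nr3c1 was lower by the same comparison (-0.67, SE 0.024).

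Between the cardioGRKO groups 3 genes were higher under the female label and 2 lower, where 11.9% and 12.4% of all genes were called. Sgk1 was 0.56 higher (SE 0.024, adjusted p = 3.0e-11), Ddit4 0.43 and Tsc22d3 0.18. Klf15 and Arrdc3 were lower, at -0.17 and -0.14. With the replicate number as a block these 2 were not called (-0.13, adjusted p = 0.10, and -0.15, adjusted p = 0.058). That fit too compares the sexes at its baseline replicate number, so it does not test the difference of the group means. Zbtb16, at 0.075 (adjusted p = 0.055), was called without female cardioGRKO 3 (0.089, adjusted p = 0.047). The comparisons between sexes and between genotypes share libraries, so their values are not independent of each other.

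Among 44 other tested genes that glucocorticoids induce, 20 were lower and 11 higher in male cardioGRKO hearts, with a median of -0.053. Under the female labels 18 were lower and 14 higher, with a median of -0.0063. In both sexes 7 fell (Per1, Fkbp5, Zfp36, Sult1a1, Trim63, Fam107a and Bcl2l1, named after their values were seen). Another 3 rose in both and 12 moved in opposite directions. Over all genes tested, 14.6% were lower and 12.8% higher in males, 14.0% and 15.2% in females, and 1.69% lower in both. The same shares apply to the counts of the lists and markers below. Sult1a1, a sulfotransferase, fell by 0.30 and 0.29. Ptgds, which makes prostaglandin D2, fell by 1.097 in males and rose by 0.33 in females. Acsl1, which activates fatty acids, took the same course (-0.33 and 0.28). Lpin1, a phosphatidate phosphatase, fell by 0.22 in males and stood at 0.021 in females (adjusted p = 0.49).

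Txnip, a thioredoxin-binding protein, rose by 0.11 in males and fell by 0.79 in females. The clock gene Per1 fell by 0.092 and 0.56. Pdk4, which restrains glucose oxidation, rose in both, by 0.090 and 0.50. Glul, glutamine synthetase, stood at -0.049 in males (adjusted p = 0.12) and rose by 0.33 in females. Per1 means ranked the groups as Sgk1 means did, from 10.77 under the female floxed label through 10.21 under the female cardioGRKO label and 9.56 in male floxed to 9.47 in male cardioGRKO libraries.

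**Figure D3:**
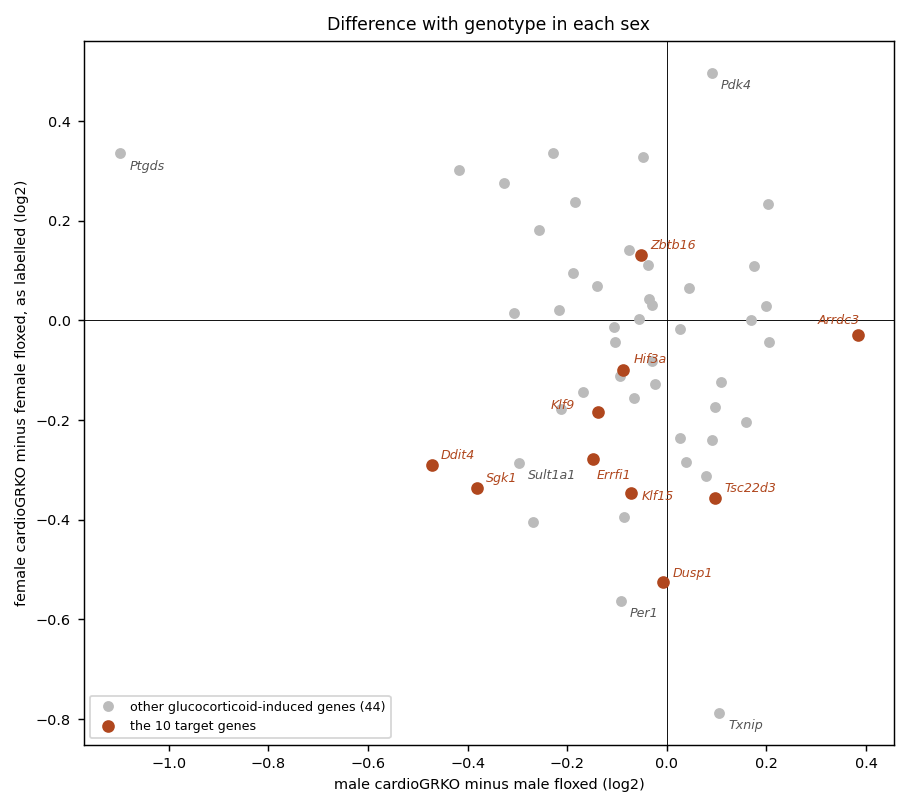
Log2 difference of cardioGRKO minus floxed in males (horizontal axis) and in females as labelled (vertical axis) for the 10 target genes (orange points) and 44 other glucocorticoid-induced genes (grey points). Sgk1, Ddit4, Errfi1, Klf9 and Hif3a lie in the lower left, where both differences are negative, Arrdc3 and Tsc22d3 lie to the right of 0, and Ptgds and Txnip are the far points of the list.

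Next came the receptor's own machinery, its chaperones and the enzymes and pumps that set its ligand. Of 20 tested genes 7 were lower and 1 higher in males, with a median of -0.017, and 2 were lower and 7 higher in females, with a median of 0.048. The list holds the targeted gene Nr3c1 itself, which is counted in the 7 lower in males and in the 7 higher in females. Hsd11b1, which regenerates active glucocorticoid inside cells, fell by 0.19 in males and stood at 0.050 in females (adjusted p = 0.18). The efflux pump gene Abcb1a fell by 0.19 in males and the co-chaperone gene Bag1 by 0.097. Among chaperones and co-chaperones of the receptor, Hspa8 rose by 0.32, Hsp90ab1 by 0.22, Hsp90aa1 by 0.17 and Fkbp4 by 0.17 in females, while Ptges3, the p23 co-chaperone, stood at 0.045 (adjusted p = 0.18). In males Hsp90aa1 rose by 0.082 and Fkbp4 fell by 0.056.

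Relatives of the 10 genes share their protein families. Of 29 tested, 6 were lower and 4 higher in males (median -0.024), and 9 were lower and 2 higher in females (median -0.0093). Klf10, Klf11, Dusp6 and Arrdc4 fell in both sexes, as did 1.69% of all genes tested. Over all genes 14.6% were lower and 12.8% higher in males, and 14.0% and 15.2% in females. Klf10 and Klf11, which also respond to transforming growth factor β, fell by 0.19 and 0.25 and by 0.096 and 0.24. Arrdc4, an arrestin-domain relative of Arrdc3, fell by 0.32 and 0.19, whereas Arrdc1 and Arrdc2 fell in females alone by the threshold (-0.10 and -0.10, against -0.068 and -0.045 in males), and their interactions were not called (adjusted p = 0.61 and 0.41). Klf2, a flow-responsive factor of endothelium, fell by 0.17 in females and stood at -0.024 in males. Klf3, Klf4, Klf6, Klf7, Klf12, Klf13 and Klf16 were called in neither.

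Dusp6, a phosphatase of ERK, fell by 0.11 and 0.19. Dusp5 fell by 0.12 and Dusp16 rose by 0.090 in females, and Dusp10 rose by 0.10 in males, while Dusp2 and Dusp4 were not called. Hif1a, the main hypoxia-inducible α subunit, rose by 0.10 in males and fell by 0.13 in females, and Epas1, the related HIF-2α, did the reverse (-0.078 and 0.068). Their partner Arnt was not called. Tsc22d1 fell by 0.075, Tsc22d4 rose by 0.076 and Zbtb20 rose by 0.13 in males. Calls were absent in both sexes for Tsc22d2, Sgk3, Ddit4l and Zbtb7a.

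**Figure D4:**
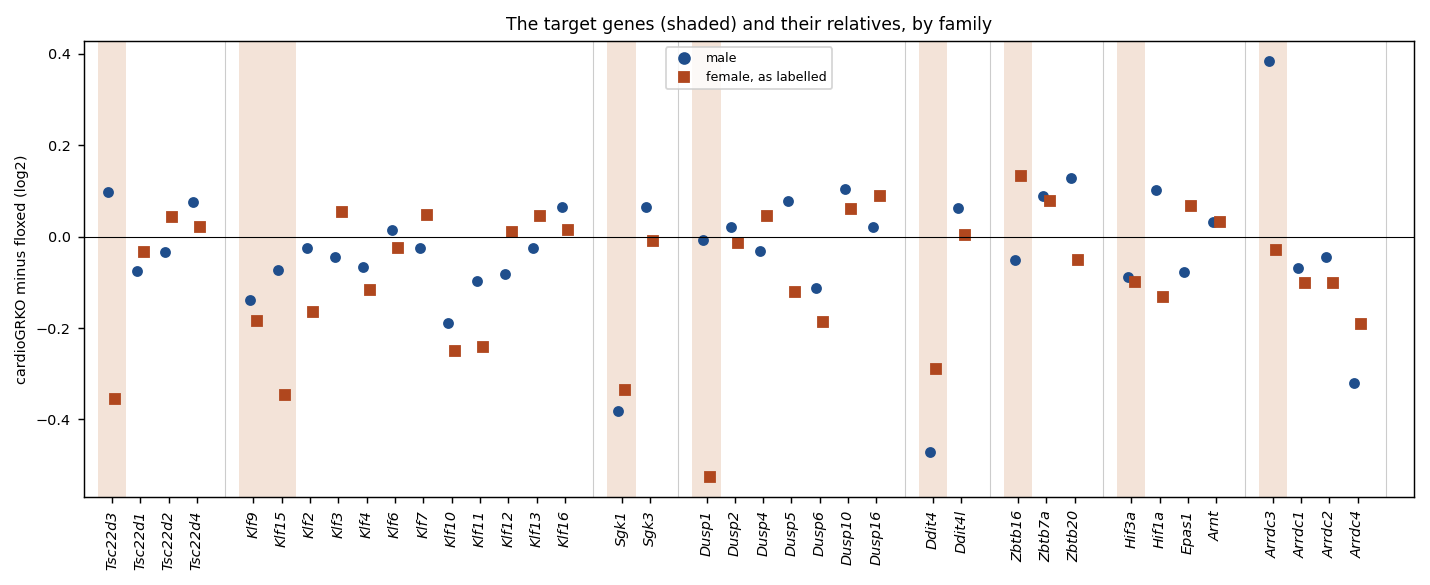
Log2 difference of cardioGRKO minus floxed (vertical axis) in males (circles) and in females as labelled (squares) for 8 families, with the target genes shaded; the family of Errfi1 had no listed relative. Sgk1 and Ddit4 lie below -0.28 in both sexes while Sgk3 and Ddit4l stay near 0, and Arrdc3 and Arrdc4 lie on opposite sides of 0 in males.

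Genes of branched-chain amino acid breakdown are, with some others, targets of Klf15 in the heart. Of 20 such genes 19 were lower and 1 higher in male hearts, with a median of -0.18, beside -0.073 for Klf15 itself. In females 1 was lower and 9 higher, with a median of 0.058, beside -0.35 for Klf15. The list was not tested against Klf15. Bckdhb and Bckdha, subunits of the branched-chain keto acid dehydrogenase, fell by 0.38 and 0.22 in males, Aldh6a1 of valine breakdown by 0.36 and Mccc2 of leucine breakdown by 0.21. Bcat2, the mitochondrial transaminase, rose by 0.17 in females after a fall of 0.16 in males, and Pccb and Dld rose by 0.13 and 0.090 in females. Kcnip2, a potassium channel subunit that Klf15 controls in a daily rhythm, rose in both (0.17 and 0.18).

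Klf9, Klf15, Tsc22d3 and Per1 also follow the time of day, and clock genes differed between the groups. Of 15 clock genes 9 were higher and 3 lower in male cardioGRKO hearts, and 2 were higher and 8 lower under the female labels. Dbp and Per3, outputs of the clock, rose by 0.56 and 0.63 in males and fell by 0.51 and 0.41 in females, and Nr1d2 rose by 0.19 and fell by 0.36. Tef rose by 0.50 and fell by 0.15. Arntl, the activator, fell by 0.38 in males and stood at 0.071 in females (adjusted p = 0.066), and Nr1d1 fell by 0.52 in females. The labels give no hour of collection, and the part of the clock in the values of the 10 genes was not tested.

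Immediate early genes, which like Dusp1 respond quickly to growth factors and stress, were lower in 5 of 12 cases and higher in 1 in females, and lower in 2 and higher in 3 in males. Fos and Nr4a1 rose by 0.22 and 0.43 in males and fell by 0.74 and 0.78 in females. Egr1 fell in both, by 0.17 and 0.70, Junb fell by 0.34 in females, and Ier3 rose by 0.13 and 0.17. Between the floxed groups Fos was 0.51 and Nr4a1 0.63 higher under the female label, beside the 0.51 of Dusp1. The part of these signals in the values of the 10 genes was not tested.

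**Figure D5:**
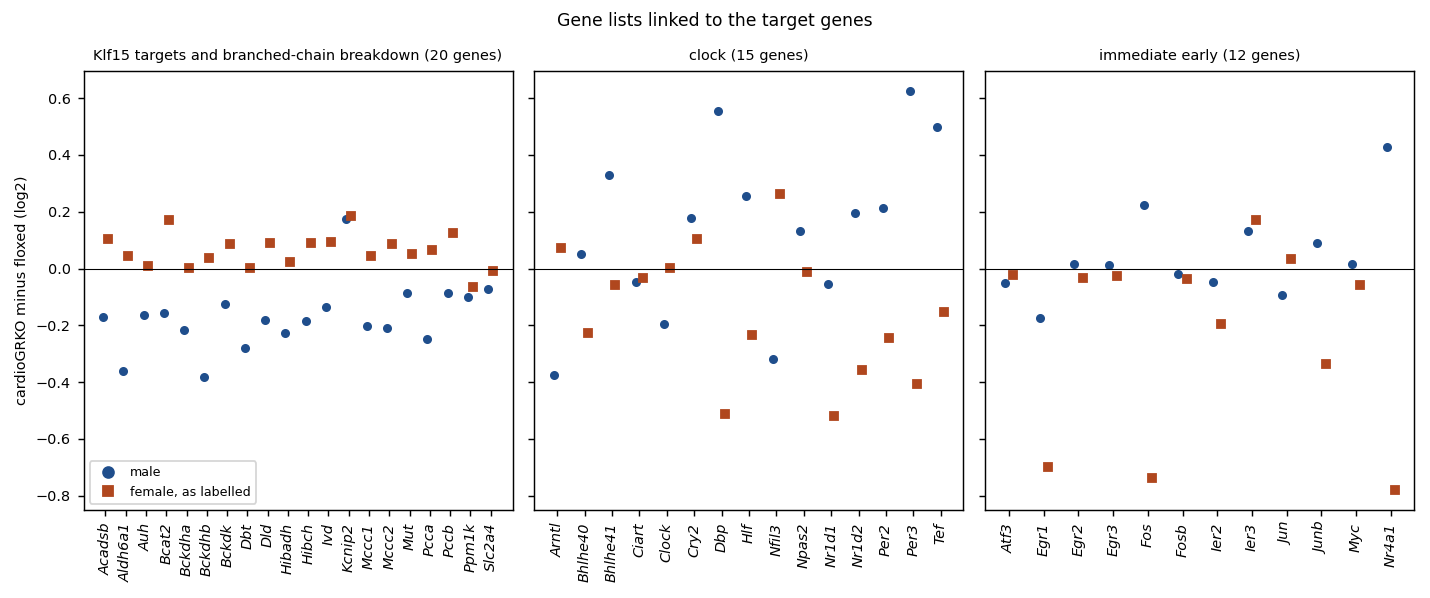
Log2 difference of cardioGRKO minus floxed (vertical axis) in males (circles) and in females as labelled (squares) for 20 genes of branched-chain amino acid breakdown and Klf15 targets, 15 clock genes and 12 immediate early genes. Male points of the first list lie below 0 apart from Kcnip2, and Dbp, Per3, Fos and Nr4a1 lie above 0 in males and below 0 in females.

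Cell type markers moved with the groups too. Among cardiomyocyte markers 8 of 10 were lower and 0 higher in males (limma, with a median of -0.17), and 1 was lower and 3 higher in females. The log2 of their summed level was 21.30 to 21.33 in male floxed, 21.19 to 21.21 in male cardioGRKO, 21.18 to 21.24 in female floxed and 21.22 to 21.23 in female cardioGRKO libraries. All 6 atrial markers were higher in males and lower in females, and their summed level was 14.81 to 14.84, 17.03 to 17.04, 16.68 to 16.73 and 15.61 to 15.64 in the same order. Endothelial markers were lower in 10 of 10 cases in males and higher in 5 and lower in 1 in females, with sums from 15.62 to 15.85. Fibroblast markers were higher in 6 of 8 in males, and lower in 5 and higher in 1 in females, with sums from 15.88 to 16.19.

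Smooth muscle and pericyte markers were lower in 5 of 8 cases and higher in 1 in males, and lower in 4 and higher in 2 in females (sums from 14.75 to 15.17). Macrophage markers were called in 0 of 7 cases in males, and were higher in 2 and lower in 1 in females (12.70 to 12.87). Adipocyte markers were higher in 2 and lower in 3 of 7 in males and rose in 6 in females (14.24 to 14.62). The sum of stratified epithelial markers spanned 14.28 to 15.71 among libraries labelled female floxed and 14.28 to 14.58 elsewhere, and 1 of 8 was lower in males and 7 in females. Every defining marker but Adgre1 and Lep was among the genes tested. Whether these failed the filter on low values or were absent under those symbols was not examined. The part of cell composition in the values of the 10 genes was not tested.

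By Pearson's r of the deposited values over the 12 libraries, the genes most like Sgk1 were Mat2a (0.992), which makes S-adenosylmethionine, and AI507597 (0.987). Tsc22d3 was most like Acer2 (0.988), an alkaline ceramidase, and Fam122b (0.982), and Dusp1 most like Txnip (0.983) and Hes1 (0.980), a Notch target. Errfi1 was nearest to Flcn (0.985), the folliculin gene, and Gm7120 (0.979). Arrdc3 came with Ndrg4 (0.979) and Polr1e (0.976), and Ddit4 with Mcf2l (0.974) and Apold1 (0.969). Klf15 was most like Pim3 (0.962), a serine kinase gene, and Rrad (0.955), a small GTPase gene. For Klf9 the nearest were Map4k3 (0.959) and Fnip2 (0.952). Hif3a resembled Nmral1 (0.944) and Tnnt2 (0.943), the troponin T of the heart, and Zbtb16 resembled Mettl16 (0.939) and Pck1 (0.938). The 12 values share 4 groups and 1 normalization, so each r mostly describes the order of the group means.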

How the data were processed

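The 12 columns of the authors' table were used. The submitters' processing notes name Trim Galore, TopHat2, HTSeq, DESeq2 and the build mm9, with no version, role or order. The deposited values are on a log2 scale, per its name and range. Whether they were shrunken at low levels is not stated. Counts and depth are unknown, so precision rests on the spread between libraries.

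Genes with a linear value of 10 or more, log2(10) on the deposited scale, in at least 3 libraries were tested, 14721 of 24918. With limma 3.58.1 (R 4.3.3), a linear model gave each of the 4 groups its own mean, leaving 8 residual degrees of freedom, and used a trended empirical Bayes prior. P-values are two-sided and Benjamini-Hochberg adjusted over all genes tested, and adjusted p under 0.05 is a call. Error bars are limma's standard errors and 95% intervals. With simulated data the code recovered the largest shift put in, which is above most differences of the 10 genes. Recovery of smaller shifts is not given here. Alternatives covered the filter, normalization, moderation, weights per library, blocking on replicate number, fitting each sex alone, testing against a 1.2-fold minimum and leaving libraries out. Exchanging the female group names was added after seeing the data.

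The 10 genes, the lists around them and the tests were chosen with earlier results of these data known. Other genes are named by a fixed rule: every tested relative of the 10, up to 4 called genes per list and sex with the smallest p (otherwise 2), and for each of the 10 the 2 genes most like it. Promoter sequences are RefSeq's, build GRCm38.p6, which is not the build of the expression table, and no coordinate was carried between the builds.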

Additional observations from a re-analysis of the deposited data

Results flagged for a closer look

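Of the 10 genes, 7 were, with Nr3c1, picked out because their cardioGRKO minus floxed difference in females differed from that in males by the interaction test (limma, adjusted p under 0.05). The female difference minus the male difference was -0.52 for Dusp1, -0.45 for Tsc22d3, -0.41 for Arrdc3, -0.27 for Klf15 and -0.13 for Errfi1. It was 0.18 for Ddit4, 0.18 for Zbtb16 and 0.70 for Nr3c1. As labelled, for Tsc22d3 and Nr3c1 both sexes were called, with opposite signs. All of these rest on the female labels, which the level of Nr3c1 does not bear out.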

How the results depend on the processing

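Leaving aside the exchange of female names given last, over 1227 combinations of gene (the 10 and Nr3c1), comparison and alternative, 1181 kept direction and call. None of the 8 sign changes touched a called difference. They were Dusp1 in males (0.0043 with quantile normalization, and -0.024 to 0.0016 over libraries left out), Hif3a in the interaction (0.0094, quantile) and between the floxed groups (-0.020 to 0.010 over libraries left out, 0.0038 without female floxed 1 and 2) and Klf9 between the cardioGRKO groups (-0.00064 to 0.035).

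Tested against a minimum fold of 1.2, the counts of the 10 genes fell to 2 lower and 1 higher in males, 2 and 0 in females, 3 and 0 in the interaction and 0 and 3 between the floxed groups, and 0 were lower between the cardioGRKO groups. By the same test 0 were lower in both sexes. This test asks for more than a nonzero difference. Counts over all genes then dropped from 4032 to 184 in males and from 4309 to 93 in females. They were 420 in the interaction (4612 before), 386 between the floxed groups (6502 before) and 117 between the cardioGRKO groups (3568 before). Without female floxed 1 and 2 that group holds 1 library, so the female count is not given. Hif3a was not tested with the filter at a linear value of 50.

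Deviations from the group means had r from -0.11 to 0.15 for same-numbered libraries and from -0.22 to 0.24 for different-numbered ones. With 3 libraries a group, these r values cannot settle whether the numbers pair them. With the replicate block 0 genes in place of 1 were lower between the floxed groups and 0 in place of 2 between the cardioGRKO groups, with 4187 and 1388 calls over all genes in place of 6502 and 3568, and the counts within each sex were as before. The block fit compares the sexes at its baseline replicate number and not at the group means. Its counts between the sexes therefore concern another difference and do not test how firm the main ones are. Depth is unknown, and 3 libraries a group limit precision.

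Exchanging the female names was added after seeing the data, because Nr3c1 goes against them. The female differences then were 0.53 for Dusp1, 0.36 for Tsc22d3, 0.35 for Klf15, 0.34 for Sgk1, 0.29 for Ddit4, 0.28 for Errfi1, 0.18 for Klf9, 0.10 for Hif3a, 0.029 for Arrdc3, -0.13 for Zbtb16 and -0.14 for Nr3c1, with 8 of the 10 called higher and 1 lower. The interaction changed sign for Dusp1 (0.53), Errfi1 (0.43), Klf15 (0.42), Klf9 (0.32), Tsc22d3 (0.26), Hif3a (0.19) and Zbtb16 (-0.080), and 8 were called higher and 1 lower. Among all 14721 genes tested, 4309 were then called in females and 3620 in the interaction, in either direction. None of the 10 was lower in both sexes (0 in place of 5).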
